A study of Caenorhabditis elegans with 9 samples.

Results

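Most of the genes described here make glutathione, return it to its reduced form, or supply the NADPH that this return consumes. Also listed are tald-1 and tkt-1, of the non-oxidative pentose phosphate branch, and the nitrilase gene nit-1, for which no such role is claimed here. The list holds 9 genes: gcs-1, gss-1, gsr-1, gspd-1, T25B9.9, idh-1, tald-1, tkt-1 and nit-1. They were chosen by name as a pathway, with earlier results of these data known. All 9 were measured, among 17118 genes in the series, and they are represented by 14 probesets, the groups of short probes with which an Affymetrix array reads a transcript. Populations of the wild type Caenorhabditis elegans strain N2 were kept in CeHM, an axenic liquid medium, and received sodium arsenite at 0.03% (high dose) or 0.003% (low dose, both w/v) for 6 h at 22 °C, or none (control). RNA of whole worms from 3 samples per group went onto 9 arrays. The sources give the larval stage differently (L3 in the sample labels, L1 in the methods and L4 in the results). Replicates carry the label of biological replicates, yet no source states that cultures were separate, and the p-values therefore describe the spread between these samples, which could be technical.

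Glutathione is a tripeptide that carries the main pool of small free thiols in the cell. The glutamate-cysteine ligase encoded by gcs-1 joins glutamate to cysteine in the rate-limiting step, and the glutathione synthetase encoded by gss-1 adds glycine. Glutathione is oxidized to a disulfide when it detoxifies peroxides, and the reductase encoded by gsr-1 regenerates it with electrons from NADPH. Glucose-6-phosphate dehydrogenase (gspd-1) and 6-phosphogluconate dehydrogenase (T25B9.9) form NADPH in the oxidative branch of the pentose phosphate pathway, and the cytosolic isocitrate dehydrogenase encoded by idh-1 forms it from isocitrate. Transaldolase (tald-1) and transketolase (tkt-1) belong to the non-oxidative branch, which exchanges pentose phosphates with the sugars of glycolysis. The gene nit-1 encodes a member of the nitrilase family, enzymes that cleave carbon-nitrogen bonds. Arsenite binds thiol groups, and gcs-1 is a well known target of the stress transcription factor SKN-1 in the worm intestine.

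The study's primer pair for gcs-1, on chromosome II, is shown because this gene had the largest increase of the list at the high dose and the pair defines the fragment by which the study measured the same transcript with qRT-PCR. The qRT-PCR values were not analysed here.
gcs-1 forward primer: aaccgtaccgcacattgatt
gcs-1 reverse primer: ccccatttcaattgatctcc

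High dose exposure changed all 9 genes relative to control worms, in both directions. The genes of glutathione synthesis and recycling, both dehydrogenases of the oxidative pentose phosphate branch and nit-1 were up regulated, while idh-1 and both genes of the non-oxidative branch were down regulated. In limma's test across all genes, which required a change of 1.2 fold or more and a Benjamini-Hochberg adjusted p no higher than 0.05, 6 of the 9 genes were up and 3 down regulated. Of all genes tested 20.0% passed in either direction, 9.0% up and 11% down. For every one of the 9 genes the high dose arrays lay wholly above (6 genes) or wholly below (3 genes) the control arrays, which held for 38.4% of all genes (16.7% above and 21.7% below).

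Low dose exposure changed 5 of the 9 genes, with 5 up and 0 down regulated in limma, against 1.55% of all genes called in either direction, 1.05% up and 0.508% down. An unadjusted p under 0.05 was reached by 6 genes that were higher and 0 that were lower, where 11.7% of all genes reached it, and the test without variance moderation also called 5 up and 0 down. The number called was 2 with the replicate block, 2 when low dose and control arrays were fitted alone, and 3 without low dose replicate 2, low dose replicate 3 or any 1 of the control replicates. The low dose arrays lay wholly above the control arrays for 6 genes and wholly below for 0, against 8.62% and 9.59% of all genes (18.2% together). Between the doses, 5 genes were higher and 3 lower with the high dose, against 16.8% of all genes called, 7.34% higher and 9.49% lower. The arrays of these groups were separate for 8 of the 9 genes, against 34.0% of all genes (15.8% higher and 18.2% lower).

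The median log2 fold change of the list was 1.02 for high dose and 0.68 for low dose against control, beside -0.05 and -0.01 for all genes. Both doses were set against the same 3 control arrays. RNA came from whole worms, so fewer cells of a type and less RNA per cell cannot be told apart. The genes gcs-1, gsr-1, gspd-1 and nit-1 also stand in lists that the study drew from these samples, so for them the direction is no independent evidence.

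**Figure D1:**
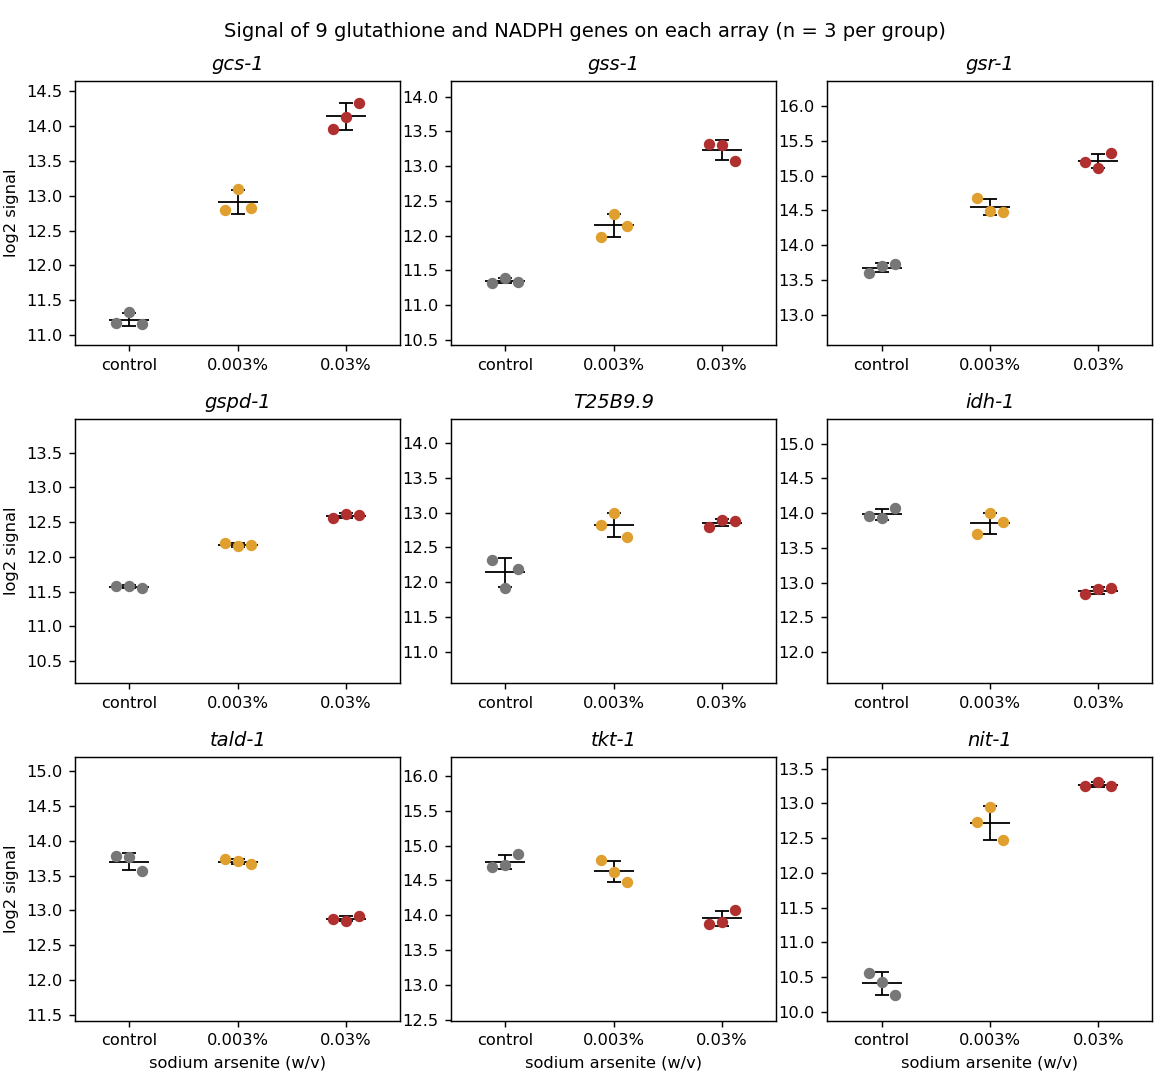
Signal on the log2 scale (vertical axis, each panel spanning the same range of the scale) of each of the 9 genes on every array, for control worms and worms exposed to 0.003% and 0.03% sodium arsenite; points are arrays, the horizontal line is the group mean and the bars are the SD (n = 3). The high dose arrays lie above all control arrays in 6 panels and below them for idh-1, tald-1 and tkt-1.

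The ligase gene gcs-1 (probeset 173813_at) stood higher with each step of dose. Its log2 signal was 11.17, 11.33 and 11.16 in control worms, 12.79, 13.10 and 12.83 with the low dose, and 13.96, 14.13 and 14.34 with the high dose. The 3 groups were fully separated from each other. The high dose signal was 7.58 fold that of control (log2 fold change 2.92, 95% interval 2.59 to 3.26, limma adjusted p = 1.69e-05), the 131st largest increase of all 17118 genes. The low dose signal was 3.23 fold that of control (limma adjusted p = 0.00129). High and low dose differed by 1.23 in log2 units (SE 0.14, limma adjusted p = 0.00126). The further probeset of gcs-1, marked _s_at and so able to detect related transcripts too, gave log2 fold changes of 3.22 (SE 0.10) for the high and 1.86 (SE 0.10) for the low dose.

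The synthetase gene gss-1 (probeset 173115_s_at) followed the same order at smaller size. On the log2 scale it read 11.33, 11.39 and 11.33 in control worms, 11.99, 12.32 and 12.14 with the low dose, and 13.32, 13.30 and 13.07 with the high dose. No array of one group reached the range of another. The high dose increase was 3.68 fold (log2 fold change 1.88, 95% interval 1.59 to 2.18, limma adjusted p = 6.88e-05), an interval that lies below that of gcs-1. The step between the doses was 1.08 in log2 units (SE 0.13, limma adjusted p = 0.00126), and that between low dose and control was 0.80 (SE 0.13, limma adjusted p = 0.0262). The other probeset of gss-1, likewise an _s_at set, gave log2 fold changes of 1.76 (SE 0.14) for the high and 0.67 (SE 0.14) for the low dose, and the low dose value did not pass (limma adjusted p = 0.0978 with every probeset tested). The low dose call of gss-1 was also lost without high dose replicate 1 or 2, without low dose replicate 2 or 3, and without any of control replicates 1, 2 and 3 (limma adjusted p = 0.0376 to 0.107 over the 9 single omissions).

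The reductase gene gsr-1 (probeset 193882_at) was up regulated by both doses. Control worms had log2 signals of 13.60, 13.69 and 13.73, low dose worms 14.68, 14.49 and 14.47, and high dose worms 15.20, 15.11 and 15.32. The groups did not overlap, and the highest control array lay well below the lowest low dose array. The increase was 2.90 fold with the high dose (log2 fold change 1.54, SE 0.11, limma adjusted p = 9.74e-05) and 1.83 fold with the low dose (log2 fold change 0.87, SE 0.11, limma adjusted p = 0.00989). The doses differed by 0.66 in log2 units (SE 0.11, limma adjusted p = 0.00629). The low dose call of gsr-1 held without any single array (limma adjusted p = 0.0206 to 0.0484), and it was lost when low dose and control arrays were fitted without the high dose arrays (limma adjusted p = 0.0546).

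Both NADPH-forming enzymes of the pentose phosphate pathway were up regulated by the high dose. The log2 signal of gspd-1 (probeset 192882_at), whose enzyme stands at the entry of the pathway, was 11.58, 11.58 and 11.55 in control worms, 12.20, 12.15 and 12.17 with the low dose, and 12.56, 12.62 and 12.60 with the high dose. Its 3 groups stood apart, and the replicates of each group differed little. The increase was 2.03 fold with the high dose (log2 fold change 1.02, SE 0.09, limma adjusted p = 2.12e-04) and 1.52 fold with the low dose (log2 fold change 0.60, SE 0.09, limma adjusted p = 0.0184). The doses differed by 0.42 in log2 units (SE 0.09, limma adjusted p = 0.0153). The low dose call was lost without any single low dose or control array (limma adjusted p = 0.0405 to 0.0860 over the 9 single omissions), and the call between the doses without high dose replicate 2 or low dose replicate 3 (limma adjusted p = 0.0304 to 0.0548).

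The next NADPH-forming enzyme of that branch, encoded by T25B9.9 (probeset 192241_at), had nearly the same mean signal with either dose. The arrays read 12.32, 11.91 and 12.19 (log2) in control worms, 12.83, 12.99 and 12.64 with the low dose, and 12.79, 12.89 and 12.89 with the high dose. Those of both doses lay above all control arrays and overlapped each other. The high dose increase of 1.64 fold passed the test (log2 fold change 0.72, SE 0.15, limma adjusted p = 0.0121). The low dose value of T25B9.9, a log2 fold change of 0.68 (SE 0.15), did not pass (limma adjusted p = 0.0899). It passed in 3 of the 21 alternatives: with the dimmest 25% of genes left out (limma adjusted p = 0.0418), with the dimmer 50% left out, and with a variance trend and robust estimation. In the 9 single omissions it passed 0 times (limma adjusted p = 0.118 to 0.214). The difference between the doses was 0.04 in log2 units, with a 95% interval from -0.30 to 0.38 (limma adjusted p = 0.906).

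The gene idh-1 (probeset 173986_at), for NADPH formation outside the pentose phosphate pathway, moved the other way. Its control arrays read 13.95, 13.92 and 14.08 in log2 signal, its low dose arrays 13.69, 13.99 and 13.88, and its high dose arrays 12.83, 12.90 and 12.92. Control and low dose arrays overlapped, and all high dose arrays lay below both. The high dose signal was 2.14 fold lower than that of control (log2 fold change -1.10, SE 0.11, limma adjusted p = 5.29e-04) and 1.96 fold lower than that of the low dose (log2 difference -0.97, SE 0.11, limma adjusted p = 0.00130). Low dose and control differed by -0.13, with a 95% interval from -0.40 to 0.14 (limma adjusted p = 0.746). A further _s_at probeset of idh-1 had log2 fold changes of -1.68 (SE 0.12) for the high and -0.01 (SE 0.12) for the low dose.

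Transaldolase and transketolase, which act side by side in the non-oxidative branch, were down regulated by the high dose. The log2 signal of tald-1 (probeset 176942_at) was 13.78, 13.76 and 13.56 in control worms, 13.73, 13.70 and 13.67 with the low dose, and 12.87, 12.84 and 12.92 with the high dose. The high dose arrays lay below the other 6, whose groups overlapped. The decrease was 1.77 fold against control (log2 fold change -0.82, SE 0.10, limma adjusted p = 0.00119) and 1.77 fold against the low dose (limma adjusted p = 0.00160). The low dose value against control was 0.00 in log2 units, with a 95% interval from -0.24 to 0.24 (limma adjusted p = 0.999).

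The log2 signal of tkt-1 (probeset 189043_s_at) was 14.70, 14.72 and 14.88 in control worms, 14.79, 14.62 and 14.48 with the low dose, and 13.88, 13.90 and 14.08 with the high dose. As for tald-1, the low dose and control arrays overlapped and the high dose arrays lay below them. The high dose signal was 1.76 fold lower than that of control (log2 fold change -0.82, SE 0.12, limma adjusted p = 0.00341) and 1.60 fold lower than that of the low dose (log2 difference -0.68, SE 0.12, limma adjusted p = 0.00940). The 3 probesets of tkt-1 disagreed. A second one (189042_at) had a high dose log2 fold change of -1.12 (SE 0.13, limma adjusted p = 8.26e-04 with every probeset tested). Its low dose value was -0.32 (SE 0.13, limma adjusted p = 0.406), with all low dose arrays below the control arrays. The remaining one (173264_at), with log2 signals between 8.13 and 9.09 on all arrays, gave 0.24 for the high dose (SE 0.25, limma adjusted p = 0.598). Its low dose value was 0.06 (SE 0.25, limma adjusted p = 0.961). With the mean of the 3 probesets the call between the doses was lost (limma adjusted p = 0.0514).

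The nitrilase gene nit-1 (probeset 188607_at) had the largest low dose increase of the list. Log2 signals of 10.56, 10.43 and 10.24 were measured in control worms, 12.73, 12.95 and 12.47 with the low dose, and 13.25, 13.31 and 13.25 with the high dose. The groups did not overlap, and the low dose arrays stood nearer to the high dose than to the control arrays. The high dose signal of nit-1 was 7.25 fold that of control (log2 fold change 2.86, 95% interval 2.51 to 3.21, limma adjusted p = 2.29e-05), an interval that overlaps that of gcs-1. The low dose signal was 4.94 fold that of control (log2 fold change 2.31, SE 0.15, limma adjusted p = 2.77e-04), the 99th largest low dose increase of all genes. The step between the doses was 0.55 in log2 units (SE 0.15, limma adjusted p = 0.0438), and this call was lost when any single array other than low dose replicate 2 was left out (limma adjusted p = 0.0308 to 0.119 over the 9 single omissions).

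**Figure D2:**
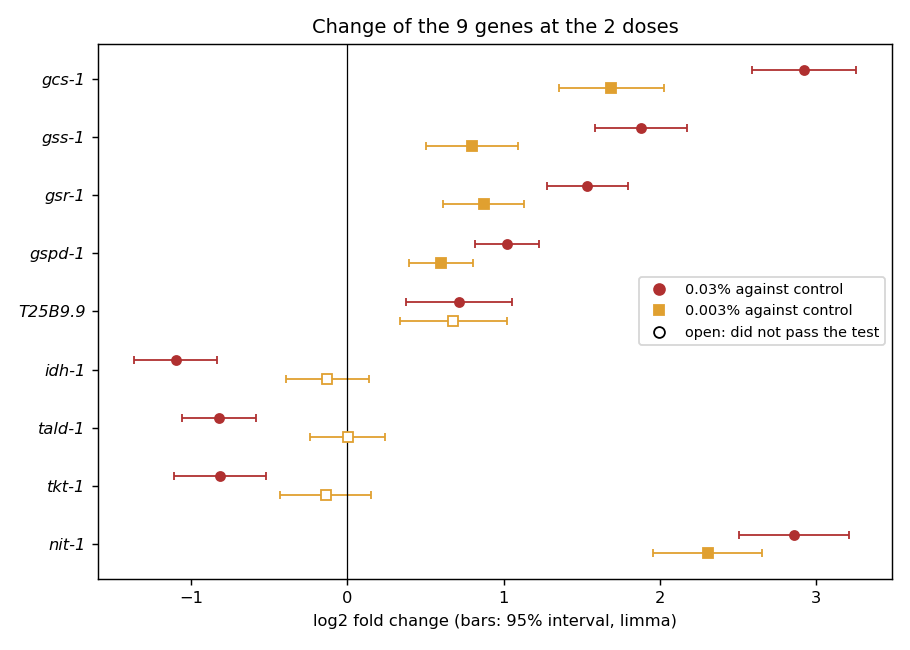
Log2 fold change against control (horizontal axis) of the 9 genes for 0.03% (circles) and 0.003% (squares) sodium arsenite, with 95% intervals from limma; filled symbols passed the test. All circles are filled, and the filled squares are those of gcs-1, gss-1, gsr-1, gspd-1 and nit-1.

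The members fell into different patterns over dose. The signals of gcs-1, gss-1, gsr-1, gspd-1 and nit-1 were higher with the low dose than in control worms and higher again with the high dose, with the limits given for gss-1, gsr-1, gspd-1 and nit-1. With the probesets that stood for them, idh-1, tald-1 and tkt-1 were lower with the high than with the low dose. Their low dose values against control lay between -0.14 and 0.00 in log2 units and did not pass the test. A further probeset of tkt-1 (189042_at) had a low dose value of -0.32, which did not pass either. T25B9.9 was the member whose step between the doses did not pass. With each of the 14 probesets tested by itself, 8 were up and 5 down regulated by the high dose, against 19.5% of the 20766 probesets tested in all (9.07% up and 10.4% down). Of the 14, 6 were up and 0 down regulated by the low dose in limma, against 1.33% (0.876% up and 0.457% down), and 7 were higher and 5 lower with the high than with the low dose, against 16.6% (7.54% higher and 9.04% lower).

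**Figure D3:**
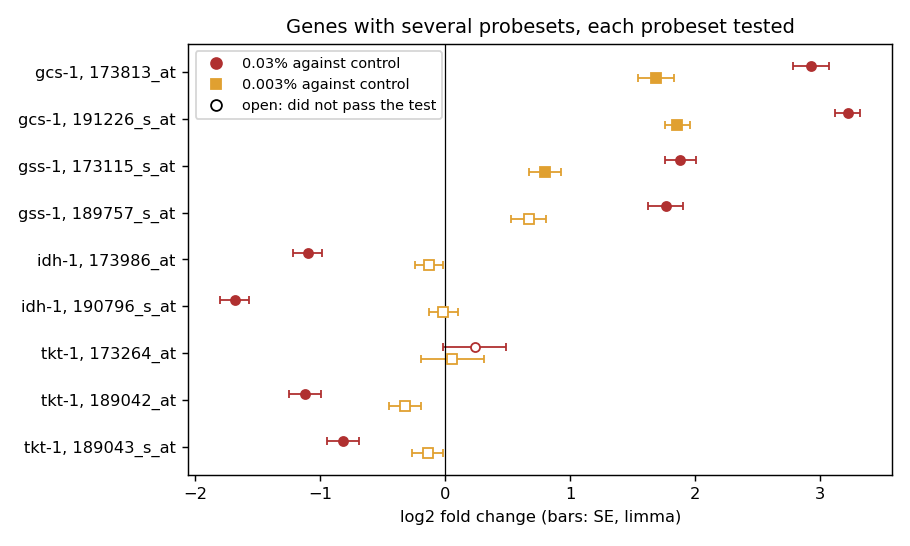
Log2 fold change against control (horizontal axis, bars are the SE from limma) of every probeset of the genes with several probesets, for 0.03% (circles) and 0.003% (squares) sodium arsenite; filled symbols passed the test. The circles of gcs-1 and gss-1 lie right of 0 and those of idh-1 left of it, while 1 of the 3 tkt-1 probesets lies at 0.24 with an open circle.

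Other genes around the pathway were counted from a list of 32 named genes, of which 31 had a probeset of their own. Of these, 11 were up and 7 down regulated by the high dose, and 3 were up and 0 down regulated by the low dose in limma. The shares among all genes were 9.0% up and 11% down for the high dose, and 1.05% up and 0.508% down for the low dose, and the groups of these genes given next are to be read beside the same shares. Their median log2 fold change was 0.03 for the high and 0.14 for the low dose, beside -0.05 and -0.01 for all genes. The high dose total of 18 was 11 without high dose replicate 1 or without high dose replicate 3. The calls nearest the threshold were those of F08F8.7, cbs-1, T03D8.6, nadk-2 and skn-1 (limma adjusted p = 0.0351 to 0.0474). Which calls were lost is not given here.

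The modifier subunit of glutamate-cysteine ligase, encoded by gclm-1 (listed as E01A2.1), was up regulated by both doses, as was the catalytic subunit gene gcs-1. Its log2 signal was 11.01, 11.21 and 11.26 in control worms, 12.54, 12.78 and 12.45 with the low dose, and 13.65, 13.99 and 13.98 with the high dose. All 3 groups were separated. The log2 fold change of E01A2.1 was 2.71 (SE 0.15, limma adjusted p = 2.80e-05) for the high and 1.43 (SE 0.15, limma adjusted p = 0.00400) for the low dose.

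F22F7.7, a member of the ChaC family of gamma-glutamylcyclotransferases, which in other organisms degrade glutathione, rose with the high dose. Its arrays read 8.55, 8.09 and 8.33 (log2) in control worms, 8.63, 9.10 and 8.94 with the low dose, and 11.17, 11.43 and 11.17 with the high dose. The high dose arrays stood far above the other 6. The high dose log2 fold change was 2.93 (SE 0.18, limma adjusted p = 3.99e-05), the low dose one 0.57 (SE 0.18, limma adjusted p = 0.251), and the doses differed by 2.36 (SE 0.18, limma adjusted p = 1.98e-04). Of the 10 other glutathione genes measured, 3 were up regulated by the high dose (E01A2.1, F22F7.7 and T03D8.6) and 1 was down regulated (C53D5.5). T03D8.6 and C53D5.5 encode members of the gamma-glutamyltransferase family, which cleaves glutathione outside the cell. The high dose log2 fold change was 0.51 (SE 0.14) for T03D8.6 and -0.84 (SE 0.16) for C53D5.5. The thioredoxin reductase genes trxr-1 and trxr-2, whose enzymes also use NADPH, had -0.41 (SE 0.20) and 0.03 (SE 0.27) and did not pass.

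NADP is made from NAD by NAD kinase, and both kinase genes were up regulated by the high dose. The log2 signal of nadk-1 was 9.83, 9.49 and 9.66 in control worms, 10.04, 10.28 and 9.94 with the low dose, and 11.43, 11.60 and 11.47 with the high dose. The high dose arrays lay above all others, and each low dose array lay above the control arrays. The high dose log2 fold change of nadk-1 was 1.84 (SE 0.14, limma adjusted p = 1.18e-04), and that of nadk-2, measured by an _x_at probeset, was 0.68 (SE 0.19, limma adjusted p = 0.0454).

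Further genes of the non-oxidative pentose phosphate branch were down regulated by the high dose, as were tald-1 and tkt-1. The ribose-5-phosphate isomerase gene rpia-1 had log2 signals of 11.71, 11.69 and 11.77 in control worms, 11.31, 11.31 and 11.43 with the low dose, and 10.62, 10.95 and 10.84 with the high dose. Its groups did not overlap. The high dose log2 fold change was -0.92 (SE 0.12, limma adjusted p = 0.00139) for rpia-1 and -0.67 (SE 0.18, limma adjusted p = 0.0351) for F08F8.7, which encodes ribulose-phosphate epimerase. The mitochondrial isocitrate dehydrogenase gene idh-2 had -0.88 (SE 0.14, limma adjusted p = 0.00392), in the direction of the cytosolic idh-1. The lactonase gene Y57G11C.3, whose enzyme acts between those of gspd-1 and T25B9.9, had 0.21 (SE 0.16) and did not pass. Nor did the malic enzyme gene men-1, with -0.07 (SE 0.13), or the transhydrogenase gene nnt-1, with -0.02 (SE 0.12). Of the 9 other genes of NADPH supply and the pentose phosphate pathway, 2 were up and 3 down regulated by the high dose, beside 9.0% up and 11% down of all genes. The low dose changed 0 of them in limma, with 1 higher and 1 lower at an unadjusted p under 0.05.

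Cysteine is the limiting amino acid for the ligase, and of the 4 genes of its supply 2 were up and 2 down regulated by the high dose. The cystathionine gamma-lyase gene cth-2 had log2 signals of 13.25, 13.27 and 13.22 in control worms, 13.58, 14.22 and 14.13 with the low dose, and 15.24, 15.39 and 15.14 with the high dose. The groups did not overlap, and the high dose log2 fold change was 2.00 (SE 0.18, limma adjusted p = 2.50e-04). The low dose value of 0.73 (SE 0.18) did not pass (limma adjusted p = 0.134). The cystathionine beta-synthase gene cbs-1 had a high dose value of -0.84 (SE 0.23, limma adjusted p = 0.0380), and the cystathionine gamma-lyase gene cth-1 one of -0.91 (SE 0.13, limma adjusted p = 0.00281). The gene cbl-1, of cysteine metabolism, was up regulated by both doses, with log2 fold changes of 2.01 for the high and 2.02 for the low dose (limma adjusted p = 2.91e-05 and 1.26e-04). The other nitrilase family genes, nft-1 and upb-1, had high dose values of -0.14 (SE 0.13) and 0.29 (SE 0.12) and did not pass the test with either dose.

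Among regulators of gcs-1, wdr-23, whose product holds SKN-1 in check, had the largest increase. The wdr-23 arrays read 9.80, 9.42 and 9.50 (log2) in control worms, 10.68, 10.34 and 10.75 with the low dose, and 11.73, 11.70 and 11.51 with the high dose. The groups were separated, with log2 fold changes of 2.08 (SE 0.16, limma adjusted p = 1.26e-04) for the high and 1.02 (SE 0.16, limma adjusted p = 0.0253) for the low dose. The gene skn-1 itself had a high dose log2 fold change of 0.87 (SE 0.25, limma adjusted p = 0.0474) on an _s_at probeset. The p38 pathway kinase genes pmk-1 and sek-1 had 0.60 (SE 0.12) and 0.58 (SE 0.14). Of the 6 regulators with a probeset of their own, 4 were up regulated by the high dose and 1, the Mediator subunit gene mdt-15, was down regulated (log2 fold change -0.53, SE 0.13).

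**Figure D4:**
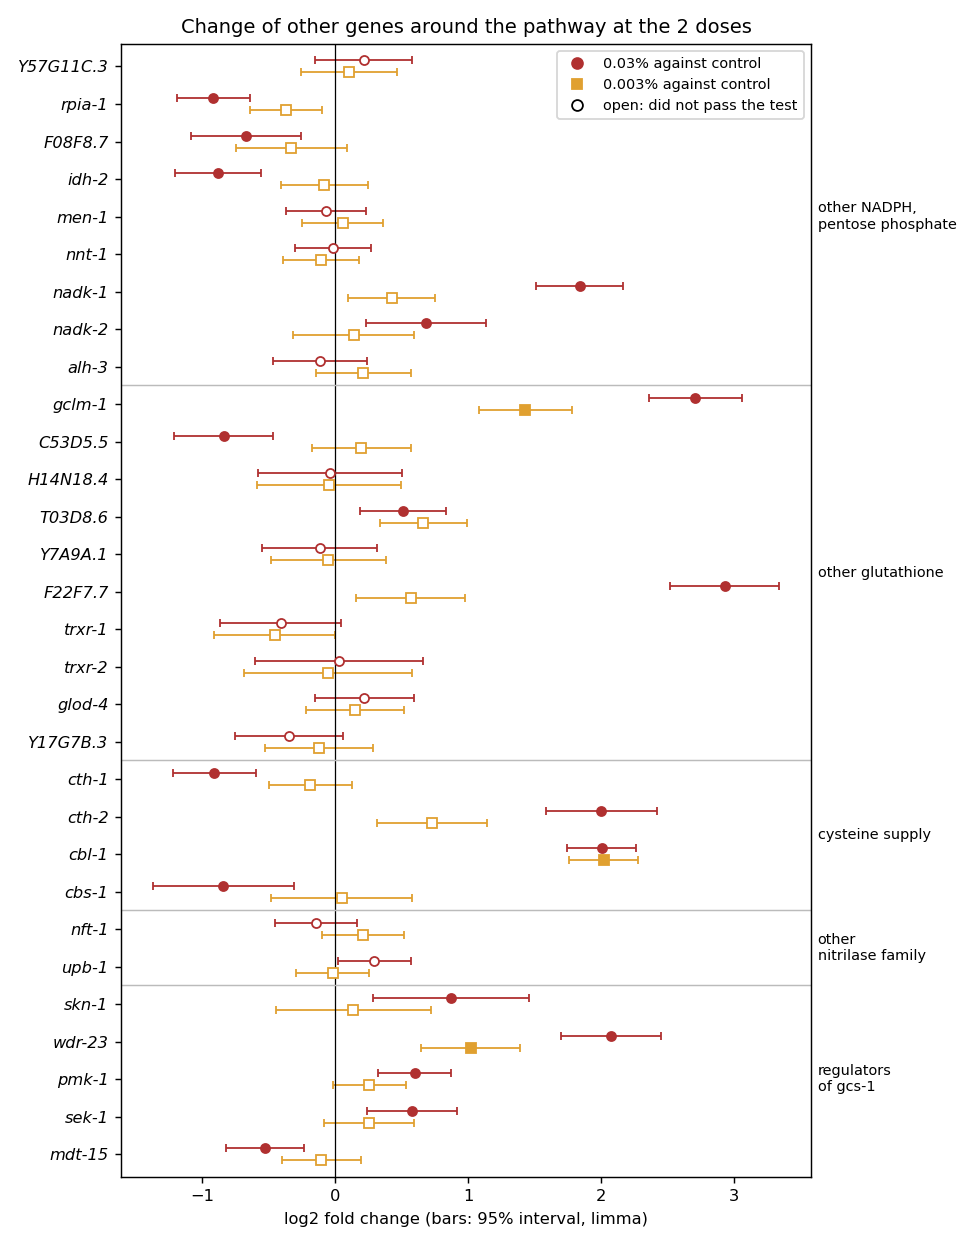
Log2 fold change against control (horizontal axis, bars are 95% intervals from limma) of the other pathway genes, by group, for 0.03% (circles) and 0.003% (squares) sodium arsenite; filled symbols passed the test. The circles of gclm-1 and F22F7.7 lie farthest to the right, at 2.71 and 2.93, and that of rpia-1 farthest to the left, at -0.92; gsk-3, whose high dose interval runs from -2.37 to 2.56, is not drawn.

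To find the genes that shared the course of gcs-1, each gene was centred on its control mean and the root-mean-square difference from gcs-1 was taken over the 9 arrays, for genes above the dimmest 25%. The nearest genes were gst-13, a glutathione S-transferase (0.176 in log2 units), F39B2.3 (0.185), Y42G9A.3 (0.213), the ligase modifier subunit gene gclm-1 (0.214) and drd-5 (0.229), against a median of 2.02 over all genes compared. For idh-1 the nearest were mel-32, a serine hydroxymethyltransferase gene (0.0721), the vacuolar proton pump gene vha-8 (0.0856), K12C11.1 (0.0867), the C-type lectin gene clec-51 (0.0893) and the peroxisome assembly gene prx-12 (0.0957), against a median of 0.67. These distances are descriptions over 9 arrays that share their groups, with no test.

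**Figure D5:**
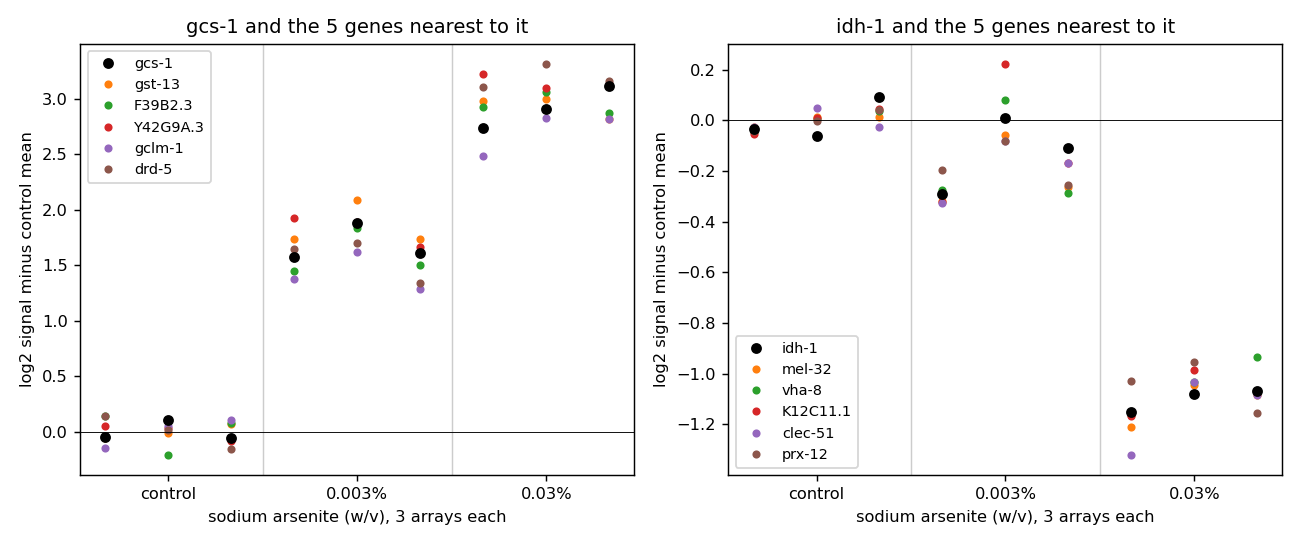
Log2 signal minus the control mean (vertical axis) on each of the 9 arrays for gcs-1 and idh-1 (black) and the 5 genes nearest to each (coloured). The points of gclm-1 and gst-13 lie close to those of gcs-1 with both doses, and the idh-1 set lies near 0 with the low dose and near -1.10 with the high dose.

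Markers of some tissues differed between the groups, beside 9.0% of all genes up and 11% down regulated by the high dose. Of 9 intestine genes, 4 were down (act-5, vha-6, pept-1 and erm-1) and 1 up regulated (elt-7) by the high dose. The log2 of their summed signal lay between 15.43 and 15.56 on high dose arrays, 15.91 and 16.02 on low dose arrays, and 16.04 and 16.11 on control arrays. This sum leans on act-5, the brightest of the list in control worms (mean 14.64, and 13.20 in high dose worms). The share of all genes with an unadjusted p under 0.05 is not given here for the high dose. At that threshold, 2 of the 9 intestine genes were higher and 5 lower with the high dose. The low dose changed 0 of them in limma, with 1 higher and 1 lower at an unadjusted p under 0.05. Of 5 germ line genes 4 were down regulated by the high dose (summed 13.89 to 14, against 14.49 to 14.62 in control worms), as were 2 of 4 hypodermis genes (15.69 to 15.94 against 16.03 to 16.10). The hypodermis sum leans on dpy-13 (mean 15.65 in high dose and 15.76 in control worms), which did not pass. Calls were few among 5 muscle genes, with 1 down regulated (15.74 to 15.95 against 15.93 to 16.12), and among 5 neuron genes, with 1 up regulated (13.86 to 14.17 against 13.40 to 13.48). That neuron gene, snb-1, is the brightest of its list (mean 13.71 in high dose and 13.03 in control worms), and the other 4 did not pass. The low dose changed 0 germ line, hypodermis, muscle or neuron genes in limma, and 0 of them had an unadjusted p under 0.05. Yolk genes, which mark adults, did not follow the order of dose. Of 5, 4 were down regulated by each dose, beside 11% of all genes for the high and 0.508% for the low dose. The summed signal of the 5 was 13.79 to 14.16 in control worms, 12.04 to 12.48 with the low dose and 12.71 to 13.13 with the high dose. The genes vit-4 and vit-5 were measured by _x_at probesets, as was nadk-2. Between the doses, 7.34% of all genes were called higher with the high dose. Of the 5 yolk genes 2 were (vit-2 by 1.31 and vit-6 by 0.82 in log2 units). The part of these differences in the changes of the 9 genes was not tested.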

How the data were processed

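The data are 9 arrays, 3 each for high dose, low dose and control, grouped by the sample labels. The authors deposited 1 log2 signal per probeset and array. According to the methods these came from RMA in Partek, but the submitters' processing notes list Partek 6.4 together with MAS5, and which of these made the deposited values is not settled. Array medians of 8.42 to 8.52 were left unscaled.

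After removal of control probesets (77) and those with several genes (887) or none (895), the brightest probeset on average stood for each of the 17118 genes, as in the methods. Names followed the array's gene assignments and RefSeq (WBcel235). All 3 contrasts were taken from a single limma 3.58.1 fit (R 4.3.3, lmFit and eBayes, 3 groups, no covariate, 6 residual and 1.45 prior degrees of freedom), with Benjamini-Hochberg adjustment over all genes in each contrast. The thresholds were an adjusted p of 0.05 and 1.2 fold. This test was tried on simulated data. The number of arrays limits the precision.

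The members, the lists of other genes and the tests were chosen with earlier results of these data known. Named are all members, listed pathway genes that passed the test with examples of those that did not, and the 5 genes nearest to gcs-1 and to idh-1. Alternatives covered the variance model, fold threshold, dim-gene filter, scaling, use of several probesets, groups fitted, replicate block and omission of single arrays. RNAi survival, qRT-PCR and other exposures were not analysed here. The primers were copied from the study's supplementary list.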

Additional observations from a re-analysis of the deposited data

How the results depend on the processing

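Each called change of the 9 genes had the same direction under all 21 alternatives. Where all probesets of a gene were used, their mean gave the direction. The tkt-1 probeset 173264_at by itself had the other sign, with 0.24 for high dose against control and 0.18 for high against low dose, and did not pass. The high dose calls held under all 21 alternatives for 8 of the 9 genes, the exception being tkt-1 when each of its probesets had to pass. The low dose total of 5 genes, all up regulated, was 2 when fitted without the high dose arrays, 2 with the replicate block, and 3 to 5 with single arrays left out (3 without low dose replicate 2 or 3 or any control replicate). The total of 5 genes higher with the high than with the low dose was 3 at a 1.5 fold threshold, 3 when fitted without the control arrays, and 3 to 5 with single arrays left out (3 without high dose replicate 2 or low dose replicate 3). Of the 31 other pathway genes, the high dose changed 18, or 11 to 18 with single arrays left out and 13 to 19 in the other alternatives. The low dose changed 3, or 2 to 3 with single arrays left out and 2 to 5 in the other alternatives. The 5 came with the dimmer 50% of genes left out and with a variance trend and robust estimation. Between the doses 10 differed, 5 higher and 5 lower with the high dose, against 16.8% of all genes (7.34% higher and 9.49% lower). The count was 8 to 11 with single arrays left out and 8 to 16 in the other alternatives. The 16 came with the dimmer 50% left out.

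Values near 0 changed sign without any call. The low dose value of tald-1 was -0.046 with quantile normalization, -0.011 with median centring, and between -0.068 and 0.040 with single arrays left out, and the difference of T25B9.9 between the doses was -0.051 to 0.12 with single arrays left out.

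The main fit held no replicate block because the methods describe none. Arrays with the same replicate number did not deviate together (correlations from -0.025 to 0.033 over 9 pairs). The replicate block lost the low dose calls of gss-1, gsr-1 and gspd-1 and the nit-1 call between the doses (limma adjusted p = 0.0528). Why calls changed was not tested.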
